A study of Mus musculus with 8 samples.

Results

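The baseline transcriptome of mature 3T3-L1 adipocytes was described from the 2 arrays of cells given physiological saline in place of a fibre. 3T3-L1 is a mouse preadipocyte line that is differentiated in culture into fat cells. A gene was taken as expressed, and so as a member of the baseline set, when at least 1 of its probes was called well above background by the scanner software on both saline arrays, and its brightest such probe gave its level. Of 34844 genes on the array, 21078 (60.5%) were members, and 14364 of these had a current RefSeq symbol. Levels are log2 of the processed intensity minus the 75th percentile of the same array, so that 0 stands for an intensity of 387.5 on saline replicate 1 and 340.1 on saline replicate 2. A level depends on the probe as well as on the RNA, so the ranking orders the description and no order was read between neighbouring genes.

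The series held 8 arrays in 4 groups of 2. The groups were chrysotile, crocidolite and amosite, 3 kinds of asbestos fibre given at 10 mg/cm2 (the unit as the labels state it), and physiological saline, and all cells were differentiated first and collected after 72 h. The labels call the arrays duplicates without naming separate cultures. A p-value here therefore reflects the spread from array to array, which may be technical. The 8 arrays shared 1 slide, 56.2% to 62.8% of their probes were called well above background, and no spot was saturated. With 2 arrays a group, array number sets the precision.

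Adipocytes store triglyceride in lipid droplets, take up glucose under insulin, break fat down under catecholamines and secrete hormones such as adiponectin and leptin. The nuclear receptor PPARγ and the C/EBP factors drive their differentiation, and 3T3-L1 cells convert from fibroblast-like preadipocytes. White adipocytes are set apart from brown ones by the lack of the uncoupling protein UCP1.

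The top of the ranking mixed adipocyte and housekeeping transcripts with genes whose place rested on 1 probe that holds a repeat. The probes are 60 bases long. Among the 25 brightest members, 8 (32.0%) had a probe with letters shared by many unrelated probes, against 21 of the 100 brightest (21.0%) and 95 of the 1000 brightest (9.5%). Stretches of 30 bases from 8 such probes are given here because the ranking of these genes turns on them, with a 14-base word shared with other probes of the same class in capitals. Positions are those of the whole probe on build mm9, as the files give them, with the strand read from the order of the coordinates. The first 4 hold words of B1 and the next 2 of B2, both short interspersed repeats found throughout the mouse genome, and the last 2 hold runs of CA.
Glrx2 (chr1:145596708-145596767, + strand): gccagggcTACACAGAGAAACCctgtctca
Kctd14 (chr7:104606896-104606955, + strand): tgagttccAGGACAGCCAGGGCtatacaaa
Elk1 (chrX:20510521-20510580, - strand): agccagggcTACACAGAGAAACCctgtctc
Slc10a1 (chr12:82056539-82056598, - strand): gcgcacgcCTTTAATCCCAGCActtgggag
Synrg (chr11:83855517-83855576, + strand): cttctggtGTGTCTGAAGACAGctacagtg
Pirb (chr7:3663046-3663105, - strand): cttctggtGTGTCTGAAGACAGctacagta
Itgam (chr7:135261755-135261814, + strand): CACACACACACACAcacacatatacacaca
Krt222 (chr11:99095480-99095539, - strand): aaggttgtACACACACACACACacacacac

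The word in capitals in the Glrx2 and Elk1 stretches was found in 9 other B1 probes, and that of Synrg and Pirb in 14 other B2 probes. Glrx2, a mitochondrial glutaredoxin, led the ranking at 10.07 and 10.21 on the 2 saline arrays, while its other 2 probes averaged 2.92 and -3.84. Slc10a1, the bile acid uptake carrier of liver cells, stood at 9.73 and 9.86 by its B1 probe and averaged -4.76 by its other probe. Pirb, a receptor of myeloid cells, stood at 9.14 and 9.26 by its B2 probe and averaged -5.22 and -5.66 by the other 2. Itgam, the macrophage integrin CD11b, stood at 5.84 and 6.02 by its CA probe and averaged -3.16 and -3.83 by the other 2. The probes of 1 gene thus disagreed in these cases by 6 log2 units or more, and the gap was far larger than that between the 2 arrays.

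**Figure D1:**
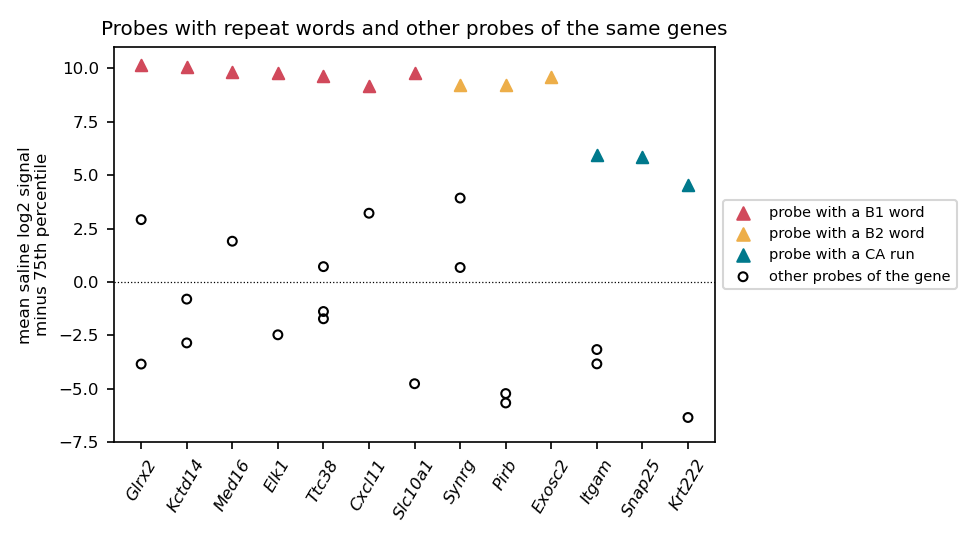
Mean level on the 2 saline arrays (log2 signal minus the 75th percentile of the array) of 13 probes that hold a B1 word, a B2 word or a CA run (triangles), with the other probes of the same genes as open circles. The triangles for Slc10a1 at 9.80 and Pirb at 9.20 lie above other probes of these genes at -4.76 and -5.22, and Exosc2 and Snap25 have no other probe.

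Over all 55678 probes with a value on both saline arrays, the median level was -3.54 and 53.3% were well above background. The 45 probes with a B1 word on the strand of the Glrx2 and Slc10a1 probes had a median of 4.57, and 44 of them (97.8%) were well above background. The 26 probes with a B1 word on the other strand had a median of 0.02. For B2 words the median was 7.18 over the 36 probes on the strand of the Synrg and Exosc2 probes and -0.47 over the 6 on the other strand. The 183 probes with a CA run of at least 12 bases, on either strand, had a median of 3.09. Where a gene with a B1 probe on the first strand also had a probe free of such words, the B1 probe was the higher one in 19 of 21 genes, by a median of 7.5. The B1 and B2 words and strands were taken from the bright probes of Glrx2, Slc10a1, Synrg and Exosc2, chosen after their values were seen. These probes stay in the counts, so the B1 and B2 values were partly set by that choice and are no test. Whether RNA of other genes bound these probes was not tested. Because the rule takes the brightest probe of a gene, the genes named from here on were also read without the 587 probes that hold such words or a 16-base word found in the probes of 10 or more other genes.

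The label of mature adipocytes held against the 5 defining markers, which were all members, none through a probe with a shared word. The preadipocyte gene Dlk1 was bright as well (7.98 and 7.56), so these markers do not show that every cell was mature. Cfd encodes adipsin, the complement factor D that fat cells secrete, and it ranked 4, or 2 without the shared-word probes, with 9.92 and 10.10 (probe at chromosome 10, 79355302 to 79355361). Fabp4, the fatty acid-binding protein of adipocytes, had 9.34 and 9.78 (chromosome 3, 10204452 to 10204511). Adipoq, which encodes adiponectin, had 9.19 and 9.65 (chromosome 16, 23157576 to 23157635). These 3 were among the 25 brightest members. Retn, which encodes resistin in mouse fat, had 7.10 and 7.81 (chromosome 8, 3659757 to 3659816), and its second probe averaged 7.42. Plin1, the perilipin that coats lipid droplets, had 6.19 and 6.70 (chromosome 7, 86866112 to 86866171). In all 5 the second saline array was the higher one. The exons or untranslated regions that hold these probes were not looked up.

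The other named genes among the 29 brightest members were of several kinds. Rn18s, the 18S ribosomal RNA, had 10.05 and 10.22. Gapdh and Aldoa, enzymes of glycolysis, had 10.03 and 9.95, and 9.73 and 10.02. Col1a2, a chain of type I collagen, had 9.73 and 9.58, and Sparc, a collagen-binding matrix protein, 9.33 and 9.70. The mitochondrial subunits Cox6a1 (9.35 and 9.80) and COX1 (9.15 and 9.64), and the ferritin chains Ftl1 (9.31 and 9.51) and Fth1 (9.44 and 9.33), were there as well, and so was Fau, which encodes a ribosomal protein fused to a ubiquitin-like one (9.39 and 9.53). Zfp628, a zinc finger protein, had 9.88 and 10.03 by 1 probe and averaged -0.10 by the other, without any of the words searched for. Kctd14, Med16, Slc10a1, Elk1, Ttc38, Exosc2, Milr1 and Rn4.5s (9.41 and 9.37) were ranked by probes with B1 or B2 words. The pseudogenes Gm5523 and Gm12070 had 9.64 and 9.76, and 9.49 and 9.63. COX2, of the mitochondrial genome, had 9.46 and 9.63. All 13 protein-coding genes of the mitochondrial genome were members, with a median level of 8.19.

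Protein-coding genes were members in 13486 of 20222 cases (66.7%), and 8586 of them (42.5%) were above the 75th percentile of the arrays. Of 1084 olfactory receptor genes, which serve smell and are read here as a yardstick of tissue-foreign genes, 123 (11.3%) were called well above background but only 6 were above the 75th percentile, and of 256 vomeronasal receptors 33 and 3 were. A call near the lowest signals is therefore weak ground for expression, and counts are given at both levels. Over all genes on the array 60.5% were members and 32.4% were above the 75th percentile, and the list counts below are read against these shares. The 3 dimmest members with a symbol, Gm17769, Sbk2 and Myl2, averaged -4.29, -4.30 and -4.32. The 3 brightest genes left out, Syngr1, Car14 and 2900052N01Rik, averaged -2.04, -2.20 and -2.41 and were above background on saline replicate 2 only.

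Transcription factors of adipogenesis were nearly all expressed, with 31 of 32 members and 28 above the 75th percentile. Pparg, the master regulator, had 6.81 and 7.28. Cebpb, Cebpd and Cebpa, which act early (the first pair) and late in differentiation, had 5.10 and 5.46, 3.31 and 3.52, and 3.05 and 3.71. Among the partners, Rxrb had 4.76 and 4.74 and Rxra 0.43 and 0.00, and Nr1h3, the oxysterol receptor LXRα, had 4.21 and 4.76. The lipogenic factors Srebf1 (0.94 and 1.06) and Mlxipl, which encodes ChREBP (2.11 and 2.22), were members. Thrb, a thyroid hormone receptor, was the 1 factor not detected, at -4.80 and -5.82, whereas Thra had 4.41 and 4.39. Of 14 anti-adipogenic regulators 12 were members, 6 of them above the 75th percentile, 1 of these (Wnt5a) by a probe with a shared word. Dlk1, or Pref-1, which preadipocytes carry and lose as they mature, was bright at 7.98 and 7.56, and its second probe averaged 4.57.

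Of 29 genes of the lipid droplet 28 were members and 24 were above the 75th percentile. Lpl, the lipase that frees fatty acids from lipoproteins, had 8.95 and 9.28, Cidec, which fuses droplets into large ones, 8.25 and 8.51, and Cavin1, a coat protein of caveolae, 7.83 and 8.23. Among perilipins Plin4 had 7.32 and 7.40, Plin2 5.93 and 5.86 and Plin3 4.86 and 4.85, while Plin5, the perilipin of oxidative tissues, had -3.96 and -3.91. The lipases of stored fat, Pnpla2 (ATGL), Lipe (hormone-sensitive lipase) and Mgll, had 6.98 and 7.36, 1.65 and 1.61, and 2.13 and 2.55. Fitm1, known from skeletal muscle, was not detected (-6.47 and -6.40), whereas Fitm2, known from fat, had 5.66 and 6.04.

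Genes of fatty acid and triglyceride synthesis were members in 29 of 30 cases, 25 of them above the 75th percentile. Gpd1, which makes glycerol phosphate, had 8.84 and 9.24, Scd1, the stearoyl-CoA desaturase, 8.86 and 9.02, and Acsl1, which activates fatty acids, 8.13 and 8.47. Dgat2 and Dgat1, which perform the last step of triglyceride synthesis, had 7.20 and 7.44, and 4.82 and 5.20. Fasn, the fatty acid synthase, had 1.27 and 1.43 by its single probe. Pck1, used by fat cells to make glycerol phosphate from pyruvate, had 6.41 and 6.71. The gene not detected was Elovl3, an elongase of cold-exposed brown fat (-6.41 and -6.44).

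**Figure D2:**
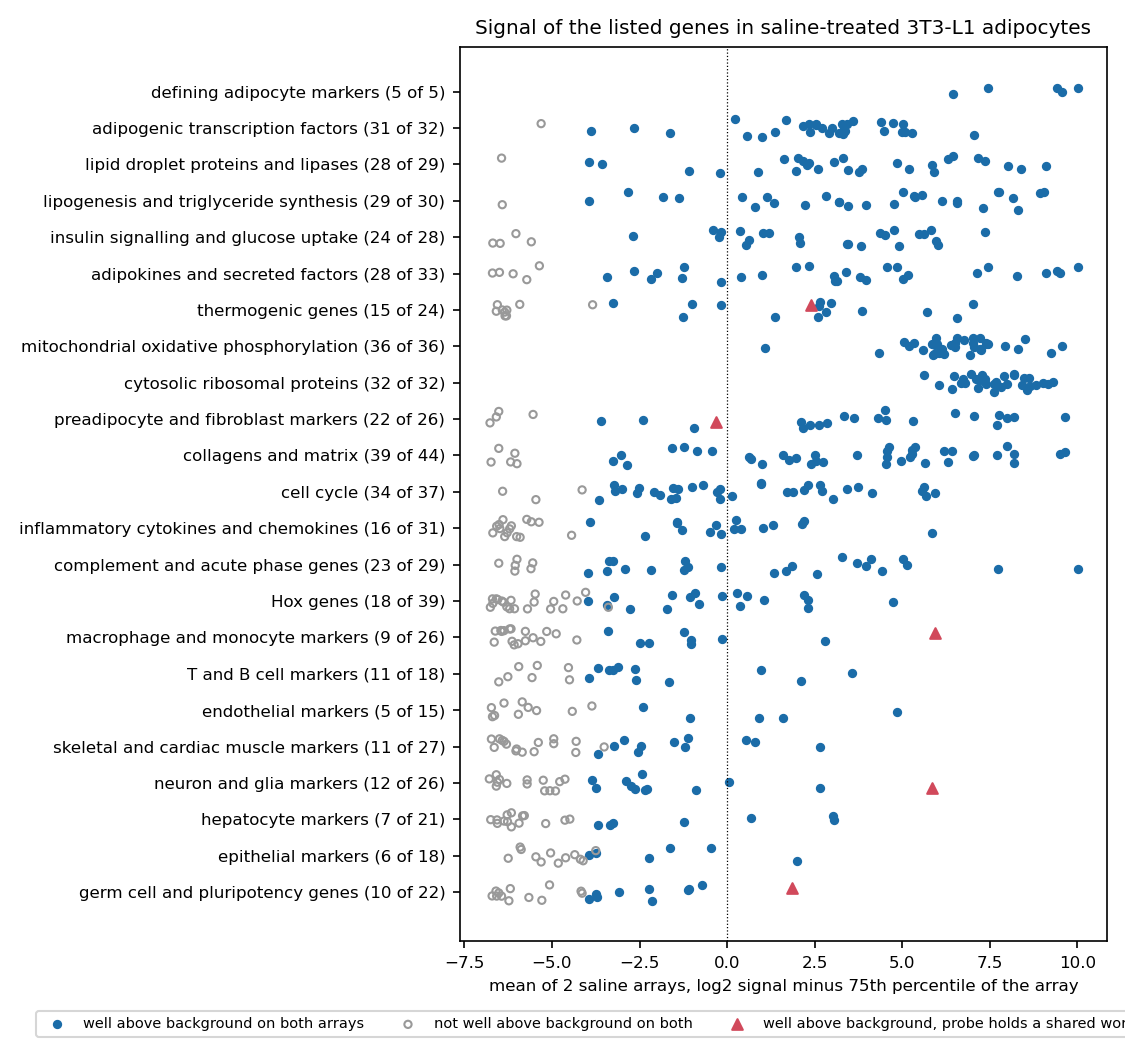
Mean level on the 2 saline arrays (x axis, log2 signal minus the 75th percentile of the array) of the genes of 23 lists, 1 point a gene. Filled points were well above background on both arrays, open ones were not, and triangles are members whose probe holds a shared word. The 36 respiratory chain and 32 ribosomal protein genes lie to the right of 0, and most open points belong to lists of other cell types, such as macrophage (17 of 26 not detected) and hepatocyte (14 of 21).

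Families of related genes split sharply. Of 9 Fabp genes 6 were members and 2, Fabp4 and Fabp5 (7.39 and 7.73), were above the 75th percentile. Fabp12 (-1.43 and -0.62), Fabp3 of muscle (-2.53 and -2.83), Fabp2 of gut (-3.17 and -2.88) and Fabp9 of testis (-3.32 and -3.82) were members at low signal, and Fabp1, Fabp6 and Fabp7 were not detected. Of 12 Slc2a glucose transporters 7 were members. Slc2a4, the insulin-responsive GLUT4, had 5.81 and 6.25, Slc2a1, the basal GLUT1, 4.54 and 4.20, and Slc2a8 4.06 and 4.42. Slc2a12 (-0.27 and -0.60), Slc2a10 (-1.04 and -1.40), Slc2a13 (-1.39 and -1.85) and Slc2a9 (-3.94 and -4.00) were dim, and Slc2a2, Slc2a3, Slc2a5, Slc2a6 and Slc2a7 were not detected.

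Of the PPAR receptors, Ppard had 3.76 and 3.54 and Ppara 0.57 and 0.76 beside the bright Pparg. Cebpg (2.93 and 3.28) and Cebpz (1.98 and 1.92) were members, and Cebpe, known from granulocytes, was not (-4.93 and -6.38). Of the β-adrenergic receptors, Adrb3, the receptor of mouse fat, had 4.97 and 6.46, and Adrb1 had -3.78 and -3.90. The 2 saline arrays differed by 1.49 for Adrb3, a gap wider than in any other detected gene of the 7 families plotted.

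**Figure D3:**
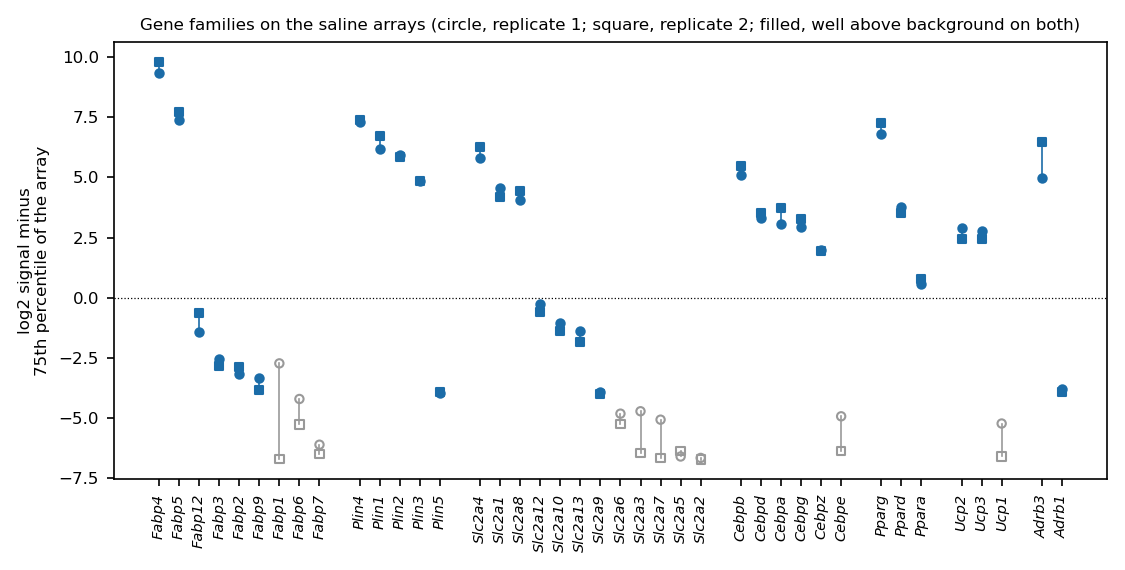
Level of genes of 7 families on saline replicate 1 (circles) and replicate 2 (squares), in log2 signal minus the 75th percentile of the array. Filled symbols mark genes well above background on both arrays. Fabp4, Plin4, Slc2a4, Cebpb, Pparg, Ucp2 and Adrb3 head their families, and Ucp1 is an open symbol near the bottom.

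Insulin signalling was largely expressed, with 24 of 28 members. Insr, the insulin receptor, had 0.60 and 0.64, Irs1 and Irs2, its substrates, 4.59 and 4.97, and 4.32 and 4.69, and Akt2, the kinase that acts on GLUT4, 5.80 and 5.85. Among 48 hormone and metabolite receptors 38 were members (79.2%, against 60.5% of all genes), 1 of them only by a probe with a shared word. Above the 75th percentile were 20 (41.7%, against 32.4% of all genes and 42.5% of protein-coding genes). Adipor2, a receptor of adiponectin, had 7.69 and 8.08, Ghr, the growth hormone receptor, 4.38 and 4.80, and Ffar2 and Ffar4, which sense short-chain and long-chain fatty acids, 4.36 and 4.57, and 3.71 and 4.04. Pgr, the progesterone receptor, and Npr1, the natriuretic peptide receptor, were not detected.

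Of 33 adipokines and secreted factors 28 were members, 21 above the 75th percentile. Besides Cfd and Adipoq, Rarres2, which encodes chemerin, had 8.10 and 8.47 and Angptl4, an inhibitor of Lpl, 6.85 and 7.42. Lep, which encodes leptin, was dim at -2.55 and -1.76. Gpx3, Tnf, Itln1, Rbp4 and Fgf21 were not detected, Rbp4 at -6.62 and -6.38.

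Of 24 thermogenic genes 15 were members (62.5%, near the 60.5% of all genes). Above the 75th percentile were 11 (45.8%, against 32.4% of all genes and 42.5% of protein-coding genes). Cox8b and Cox7a1, respiratory subunits rich in brown fat and muscle, had 6.65 and 7.41, and 6.11 and 7.03, and Ppargc1a, the coactivator PGC-1α, had 2.54 and 3.13. Ucp1 was not detected, at -5.23 and -6.60 (intensities of 10.3 and 3.5), and Prdm16 (-6.57 and -6.61), Dio2 (-4.61 and -3.07) and Elovl3 were not either. Ucp2 and Ucp3 had 2.91 and 2.42, and 2.79 and 2.45. Tnfrsf9 was a member only through a probe with a shared word, and its other probe averaged -5.98.

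All 36 listed genes of oxidative phosphorylation were members above the 75th percentile, with a median of 6.50, and so were all 32 ribosomal protein genes, with a median of 7.66. Of 28 genes of fatty acid oxidation 27 were members. Acadvl, which opens the oxidation of very long chains, had 7.18 and 7.51. Of 24 glycolytic genes 22 were members. The isoforms of muscle and brain lay lower, with Pgam2 at -1.32 and -1.60 and Aldoc at -0.78 and -0.80, and Pklr, the pyruvate kinase of liver and red cells, and Ldhc, the lactate dehydrogenase of testis, were not detected.

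A fibroblast and matrix programme stood beside the fat genes. Of 26 preadipocyte and fibroblast markers 22 were members and 18 above the 75th percentile, with Col1a2, Col3a1 (8.05 and 8.35) and Fn1, which encodes fibronectin (8.17 and 7.78), as the brightest. Pdgfra, a receptor of fat progenitors, had 3.95 and 3.31, and Tcf21, Dpp4, Cd24a and Meox1 were not detected. Of 44 collagen and matrix genes 39 were members, and the cartilage collagens Col2a1 and Col10a1 were among those not detected. Whether these signals came from undifferentiated cells in the dish or from the adipocytes was not tested, since in bulk RNA fewer cells of a type and less RNA per cell cannot be told apart.

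Cell cycle genes were members in 34 of 37 cases (91.9%, against 60.5% of all genes). Of these, 17 were above the 75th percentile (45.9% of the list, against 32.4% of all genes and 42.5% of protein-coding genes). Ccnd2 and Ccnd3, D-type cyclins, had 5.91 and 5.99, and 5.80 and 5.55, and the inhibitor Cdkn2a 5.36 and 5.77. The mitotic genes were dim, with Mki67 at -2.20 and -1.62, Ccnb1 at -2.79 and -2.36 and Top2a at -3.59 and -3.74, and Bub1, Bub1b and Aurkb were not detected. Of 19 clock genes 18 were members, Tef and Dbp, output factors of the clock, with 5.23 and 5.54, and 5.30 and 5.24, and Npas2 was not detected. Hox genes, which mark position along the body, were members in 18 of 39 cases (46.2%, against 60.5% of all genes). They were above the 75th percentile in 8 (20.5%, against 32.4%). Hoxa7 had 4.63 and 4.83 and Hoxa3 2.28 and 2.32, while Hoxa10, Hoxa11, Hoxc8, Hoxc9, Hoxd12 and Hoxd13 were not detected.

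Few immune markers were bright. Of 26 macrophage and monocyte markers 9 (34.6%, against 60.5% of all genes) were members and 2 above the 75th percentile, Itgam by its CA probe and Csf1r (2.92 and 2.70), whose other probes averaged -0.30 and -2.10. Adgre1 (F4/80), Ptprc (CD45), Spi1, Lyz2 and Cd163 were not detected. Of 18 T and B cell markers 11 were members (61.1%, near the share of all genes) and 3 (16.7%, against 32.4% of all genes) above the 75th percentile, namely Cd4 (3.50 and 3.61, other probe -3.50), Cd3e (2.11 and 2.09) and Cd79a (0.79 and 1.15, other probe -4.68), while Cd3d, Ms4a1 and Cd79b were not detected.

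Most other lineages had few bright markers too, and their shares of members stand here against 60.5% of all genes. Endothelial markers were members in 5 of 15 cases (33.3%), led by Kdr (4.77 and 4.96), whose other probe averaged -6.20. Cdh5, Tek, Tie1 and Emcn were not detected. Hepatocyte markers were members in 7 of 21 cases (33.3%), with Alb at -6.32 and -6.41 not detected. Striated muscle gave 11 of 27 (40.7%), with Myod1, Myog and Ckm not detected. Epithelium gave 6 of 18 (33.3%), with Epcam and Cdh1 not detected, and neurons and glia 12 of 26 (46.2%). In that last list Snap25 (5.98 and 5.69) rested on a single probe with a CA run. Germ cell and pluripotency genes gave 10 of 22 (45.5%), and Nanog (1.74 and 1.95), the 1 above the 75th percentile, rested on a probe with a shared word. Bone and cartilage gave 9 of 17 and pancreas and gut 8 of 20. Each of these lists, from macrophages on, had at most 3 genes above the 75th percentile.

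Of 14 smooth muscle and myofibroblast markers 9 were members (64.3%, near the 60.5% of all genes and 66.7% of protein-coding genes). Above the 75th percentile were 8 (57.1%, against 32.4% of all genes and 42.5% of protein-coding genes). Acta2, the smooth muscle actin that myofibroblasts also make, had 3.75 and 2.64, Myl9, a myosin light chain, 2.74 and 2.44, and Smtn, which encodes smoothelin, 2.86 and 2.01. The smooth muscle coactivator Myocd (-6.39 and -6.56), Lmod1 and Cnn1 were not detected. Acta2, Myl9 and Smtn were higher on saline replicate 1. Of 9 genes that are Y-linked or Xist, Sry alone was a member, at -4.23 and -4.06.

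Complement and acute phase genes were members in 23 of 29 cases. Besides Cfd, C3 had 7.52 and 7.98 and C4b 4.83 and 5.45. Of 31 cytokines and chemokines 16 were members (51.6%, against 60.5% of all genes) and 8 above the 75th percentile (25.8%, against 32.4%). Cxcl12, a chemokine of stromal cells, had 5.27 and 6.46, whereas Tnf, Il1b, Il1a, Ifng and Il10 were not detected.

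Promoters of members and of genes not detected differed in base composition, which the rule did not use. RefSeq start sites on build GRCm38.p6 were found for 16114 protein-coding genes, and each promoter was read from 250 bases before to 50 after the start. The ratio of CG pairs observed to those that base composition predicts had a median of 0.737 over the 10797 members and 0.259 over the 5317 genes not detected, and it was 0.6 or more in 66.0% of the members and 22.1% of the genes not detected, against 51.5% of all promoters read. Above the 75th percentile 75.5% reached 0.6. The letters TATAAA, on the strand of the gene within 50 bases before the start, were found in 2.11% of members and in 6.23% of genes not detected, against 3.47% of all promoters. Respiratory chain genes (22 of 26) and ribosomal protein genes (18 of 20) mostly reached 0.6, but 0 of the 4 defining adipocyte markers with an entry did, and 5 of 21 adipokine members. A match of letters is a description and says nothing of the factors bound there.

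The 2 saline arrays ranked genes much alike, with a Pearson correlation across members of 0.990 (genes are not independent replicates), and their difference had a median of -0.04 and an SD of 0.436. The SD was 0.345 above the 75th percentile and 0.518 at or under it, and 746 members (3.54%) differed by more than 2-fold. Fat cell genes lay mostly lower on replicate 1. Of 28 droplet genes 23 were lower there, of 29 lipogenic genes 25 and of 36 respiratory chain genes 33, with list medians of -0.25, -0.24 and -0.37. Of the 21075 members in the fit, 11521 were lower there. Some lists of other genes ran the same way, such as ribosomal proteins with 24 of 32 (median -0.09), so the direction was not particular to fat cell genes. The preadipocyte list ran the other way, with 15 of 22 genes higher on replicate 1 by the probes tested in the fit and 16 by the brightest probes (median 0.21), and so did the anti-adipogenic regulators, with 9 of 12 (0.44).

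Among members with a symbol, the largest gaps between the saline arrays were those of the following genes. Syna, which encodes syncytin-A, had -0.42 and -3.60, and Ltb4r2, a leukotriene receptor, -1.15 and -3.97. Rims1, Akt1s1 and Srebf2 were higher on replicate 1 by 2.67, 2.64 and 2.46. In the other direction Tkt, the transketolase, had 1.88 and 5.04, Prm1 -2.54 and 0.36, Rnf130 -2.18 and 0.58, Gm1987 -4.38 and -1.81, and Orm2, an acute phase glycoprotein, 2.01 and 4.54. For Syna the 6 fibre arrays lay between -3.96 and -3.73, so saline replicate 1 stood alone. For Rnf130 they lay between 0.24 and 0.36 and for Orm2 between 3.76 and 4.27, and again saline replicate 1 stood apart. Akt1s1, Srebf2 and Tkt differed in the same direction between replicates 1 and 2 in all 4 groups, and so did the dim genes Ltb4r2, Rims1 and Gm1987. Tkt had 3.53 and 5.13 with chrysotile, 3.33 and 5.64 with crocidolite and 3.30 and 5.01 with amosite.

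Part of the gap was common to all groups. Of 28 droplet genes 17 were lower on replicate 1 in all 4 groups (60.7%), and of 28 adipokines 14, against 17.4% of all genes tested. Of 22 preadipocyte markers 11 were higher on replicate 1 in all 4 groups, against 19.5% of all genes. Adrb3 had 4.65 and 5.86 with chrysotile, 4.75 and 6.02 with crocidolite, 4.85 and 6.20 with amosite, and 4.97 and 6.46 with saline. Lep had -2.71 and -1.92 with chrysotile, -2.91 and -1.90 with crocidolite, -2.88 and -1.98 with amosite, and -2.55 and -1.76 with saline. Dlk1 was higher on replicate 1, with 8.11 and 6.98 with chrysotile, 7.82 and 6.97 with crocidolite, 8.07 and 7.45 with amosite, and 7.98 and 7.56 with saline. For each of these 3 genes all replicate 1 arrays lay on one side of all replicate 2 arrays. Within each replicate number Adrb3 and Lep were lower on every fibre array than on the saline array. With the replicate number as a block no gene passed in limma for the mean of the fibres, with a smallest adjusted p of 0.0852. The replicate number was also the column of the array on the slide, and its part in the gap was not tested. Respiratory chain genes differed from this, since 1 of 36 was lower on replicate 1 in all 4 groups.

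**Figure D4:**
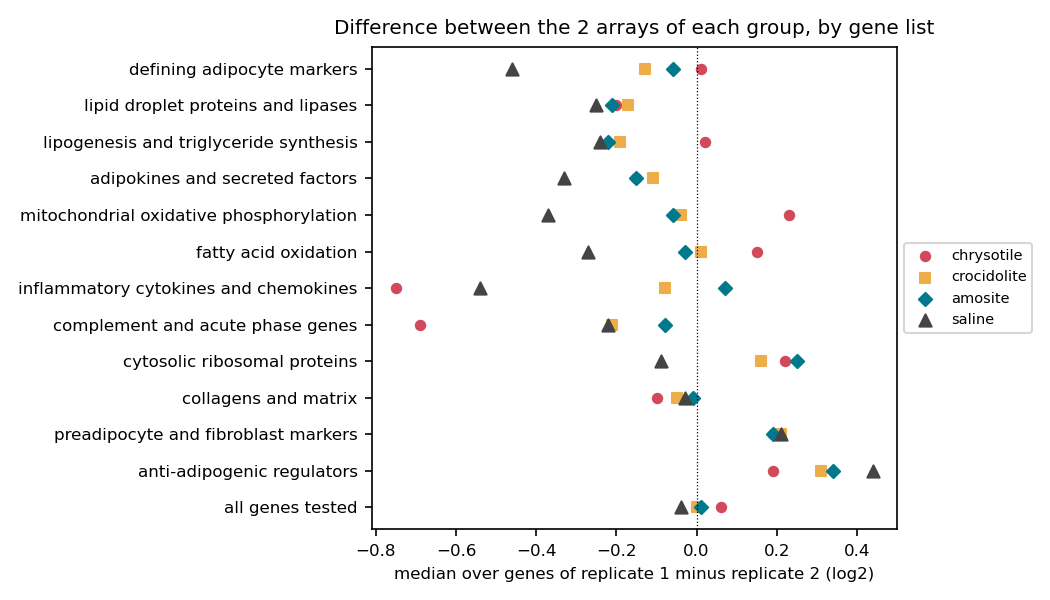
Median over the genes of a list of replicate 1 minus replicate 2 (x axis, log2) in each group, with 1 symbol a group. Preadipocyte markers lie between 0.19 and 0.21 and droplet genes between -0.25 and -0.17 in every group, while respiratory chain genes lie at 0.23 with chrysotile and -0.37 with saline.

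The fibre groups were then set against saline to see which of the baseline genes moved. Of the 21078 members, 20866 were also well above background on both chrysotile arrays, 20671 (98.1%) on both crocidolite arrays and 20837 (98.9%) on both amosite arrays. The 75 that no fibre group shared were dim, at -2.44 or lower. By an unlike rule, 590 of the 34844 genes were called on both arrays of all 3 fibre groups and not on both saline arrays. The saline arrays had the lowest 75th percentile intensities, 387.5 and 340.1, against 396.4 to 453.4 on the fibre arrays. Calls on both arrays numbered 22223 with chrysotile, 21614 with crocidolite and 22080 with amosite. Whether array signal or fibre set these counts was not tested. The level was tested with limma on 22918 genes, 1 probe a gene, with Benjamini-Hochberg adjustment and without a term for the replicate number. For the mean of the 3 fibres minus saline 1 gene passed an adjusted p of 0.05 (0.00436% of genes), and for chrysotile, crocidolite and amosite minus saline 0 passed (0.0% each). At an unadjusted p under 0.05 the counts were 1289 (5.62%) for the mean of the fibres, 1259 (5.49%) for chrysotile, 1672 (7.3%) for crocidolite and 610 (2.66%) for amosite. Of the 100 brightest members 4 reached that unadjusted level for the mean of the fibres.

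The gene that passed has no symbol and is listed as transcript ENSMUST00000097982 on chromosome 7. It was at most -6.22 on the 6 fibre arrays, on none of which it was well above background, against -2.78 and -3.16 on the saline arrays. It was lower with fibre by at least 3.55-fold, taking for each fibre array the lowest signal called above background. It entered the fit only through the saline arrays, where it was high, and its limma adjusted p of 0.0499 was computed on fibre signals below background. With the replicate number as a block its adjusted p was 0.0852, and it was no longer called. Next came Vmn2r109, a vomeronasal receptor, between -6.97 and -6.20 on the fibre arrays and at -3.81 and -3.93 on the saline arrays, or lower with fibre by at least 1.9-fold. It too was above background in saline alone, so its limma adjusted p of 0.0692 has the same limit. Tnnt2, cardiac troponin T, had -0.27 and -0.01 with chrysotile, -2.08 and -1.56 with crocidolite, -2.48 and -2.73 with amosite, and -2.94 and -2.93 with saline (0.589 for the mean of the fibres).

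The defining adipocyte markers did not pass in any of these comparisons. Adipoq had 9.29 and 9.16 with chrysotile, 9.15 and 9.29 with crocidolite, 9.22 and 9.28 with amosite, and 9.19 and 9.65 with saline, a log2 fold change of -0.19 ± 0.14 (SE, n = 2 arrays a group) for the mean of the fibres with a limma adjusted p of 0.923. The same log2 fold change was -0.03 ± 0.13 for Fabp4, -0.17 ± 0.10 for Cfd, -0.24 ± 0.32 for Retn, measured by its other probe, and -0.14 ± 0.23 for Plin1, with limma adjusted p from 0.900 to 0.992. For each of the 5 the ranges of the fibre and saline arrays overlapped, but these ranges pool both replicate numbers. Within each replicate number Plin1 was lower on every fibre array than on the saline array. In the order chrysotile, crocidolite and amosite it had 6.12, 6.10 and 6.08 on replicate 1, against 6.19 with saline. On replicate 2 it had 6.35, 6.52 and 6.69, against 6.70 with saline. The other markers did not lie lower on every fibre array in this way. The median change over all genes was -0.01, that of lipogenic genes -0.11 and that of respiratory chain genes -0.17, and 0 genes of either list passed. A p that misses the threshold does not show that the levels were alike.

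**Figure D5:**
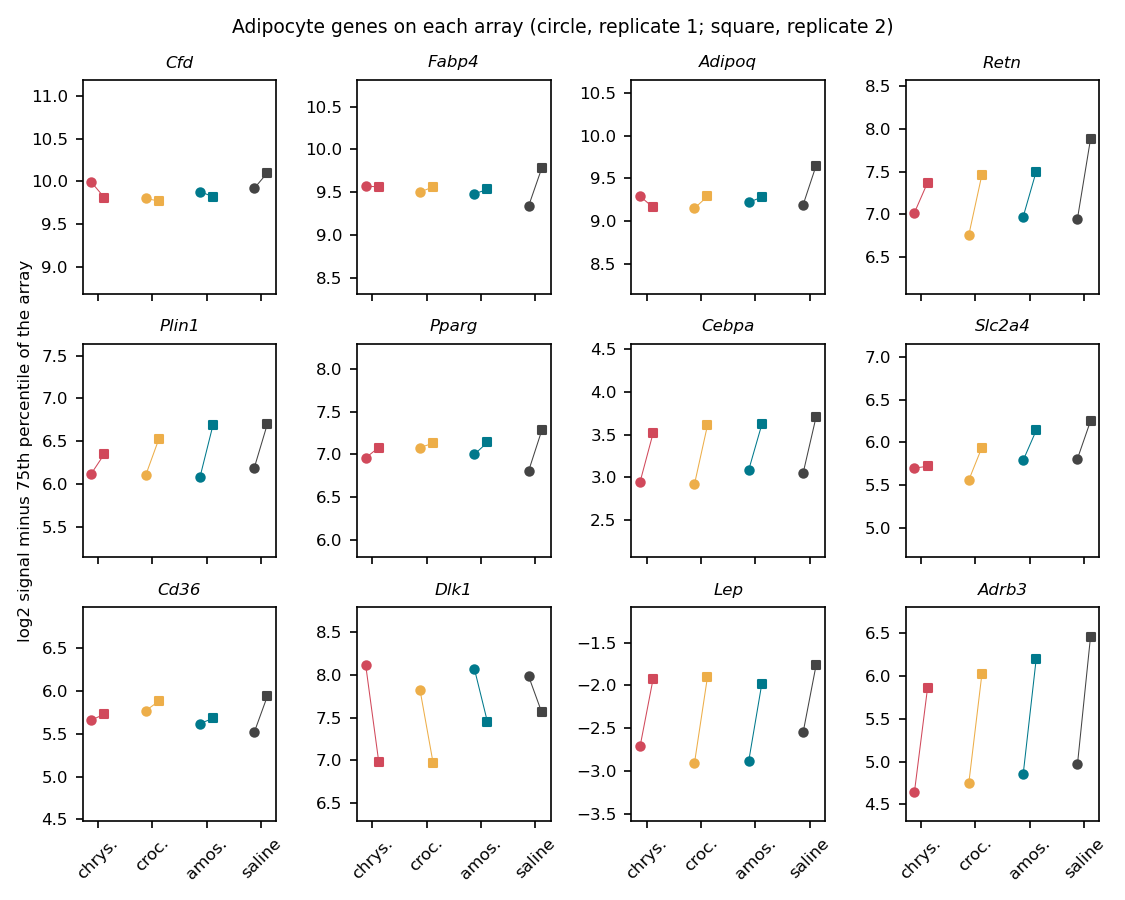
Level of 12 adipocyte genes on every array (y axis, log2 signal minus the 75th percentile, each panel with its own range), by group on the x axis, with replicate 1 as a circle and replicate 2 as a square. Replicate 2 is the higher array in all 4 groups for genes that include Lep, Adrb3, Cebpa, Retn, Plin1, Pparg and Cd36, and for Dlk1 replicate 1 is.

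Inflammatory genes had the largest median change of the 36 lists, 0.50 for the mean of the fibres. Over the 17 cytokine and chemokine genes tested, the median log2 change was 0.75 for chrysotile, 0.81 for crocidolite and 0.06 for amosite, with 0 genes passing in each. Ccl2, a chemokine for monocytes that was dim at baseline, had 2.04 and 3.67 with chrysotile, 2.33 and 2.51 with crocidolite, 0.26 and 0.68 with amosite, and -0.66 and 0.35 with saline (2.07 ± 0.46 for the mean of the fibres, limma adjusted p = 0.830). Cxcl12 had 6.74 and 7.38, 7.03 and 7.19, and 6.39 and 6.57 in the same order of fibres, and 5.27 and 6.46 with saline. These comparisons share their saline arrays, and the gap between those arrays enters each of them. Its SD was 0.543 over the 22918 genes tested, against 0.374 to 0.434 in the fibre groups. Of the genes tested 21075 were members, and the rest were not called on both saline arrays. Over members, by their brightest probes, the saline SD was 0.436, and the fibre groups were not read over members.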

How the data were processed

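Each Agilent mouse array took 1 Cy3-labelled RNA sample. Per the file headers the deposited intensity values are Feature Extraction 10.7.1.1 processed signals (protocol GE1_107_Sep09), background-subtracted and not scaled between arrays; per the submitters' processing notes the version is 10.7. The deposited value table held the same intensity values (largest difference 0). Control spots and 99 to 183 outlier spots an array were dropped, repeated spots were averaged by probe, and the 75th percentile of an array was subtracted from its log2 intensity. Gene names are the arrays' own, with symbols updated through RefSeq (22310 of 34844 matched). The fit was limma 3.58.1 in R 4.3.3 (lmFit, eBayes, 4 residual and 2.22 prior degrees of freedom, two-sided) on the brightest probe of each gene that was well above background on both arrays of at least 1 group, and was tested on simulated data. Same-numbered arrays deviated together in all 6 pairs of groups (correlations 0.254 to 0.456). The replicate number was also the slide column, so this does not show that the samples were paired. The main fit had no term for the replicate number, and its SEs and p-values leave this shared deviation in the spread. With that number as a block, genes at an unadjusted limma p under 0.05 for the mean of the fibres rose from 1289 to 2435. Each array row on the slide held 1 group, so row and group cannot be told apart. The members and all gene lists were chosen with earlier results of these data known. Named genes are the 25 brightest with a RefSeq symbol and Rn18s, the markers, the brightest and some undetected genes of each list with more for adipocyte lists, the families, the 5 largest replicate gaps each way, the genes past a threshold or of smallest p, and 3 genes on each side of the detection limit. The genes shown with repeat words, and those whose probes defined the B1 and B2 words, were chosen after their values were seen. Not every list gene is printed or plotted, and some are not reported here. Python 3.11.15 with pandas 2.3.3 made the tables.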

Additional observations from a re-analysis of the deposited data

How the results depend on the processing

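The number of members was 21078, and it was 17004 when every probe of a gene had to be above background, 20738 without probes holding shared words (an alternative chosen after seeing the data), 27031 by the scanner's positive and significant call, and 22095 to 23006 from 1 saline array. Of the 100 brightest members, 71 were kept with the median over probes, 79 without shared-word probes, 92 to 93 from 1 array and 91 to 100 under the other alternatives. The 1 call for the mean of the fibres became 2 with quantile normalization and 0 with normexp, with the 75th percentile over probes above background on all arrays, with no filter on dim probes, with probes well above background on all arrays, with the probe brightest in saline and with a trended and robust prior. With quantile normalization 3, 2 and 2 genes were called for chrysotile, crocidolite and amosite. With the replicate number as a block, the calls were 0 in all 4 comparisons, and unadjusted p under 0.05 were 2435, 2417, 3065 and 1036. Leaving out 1 array gave 0 to 184 calls for the mean of the fibres, 0 to 65 for chrysotile, 0 to 47 for crocidolite and 0 to 59 for amosite. The highest of each came without saline replicate 2. Without saline replicate 1 all 4 counts were 0. Without chrysotile replicate 1 the counts were 4, 7, 4 and 2, and without chrysotile replicate 2 they were 2, 1, 4 and 2. Without a crocidolite or amosite array the call for the mean of the fibres was lost. The cause of these shifts was not tested. With 2 arrays a group, a lone array is assumed to vary like the other groups. Signal near background limits the dim members.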
